A study of Homo sapiens with 6 samples.

Results

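The genes described here make up the machinery with which the endoplasmic reticulum (ER) takes in, folds and degrades proteins, together with the sensors that watch over it. They were picked by symbol from a fixed list of 40 names, and 40 of the 22258 gene symbols in the deposited table matched. The rule uses no measured value, but the list was drawn up with earlier results of these data known. The table holds 6 samples of human SW480 cells, a colon cancer line with truncated APC, sequenced with strand-specific libraries of total RNA. In 3 of them ALDH1B1, a mitochondrial aldehyde dehydrogenase, was knocked down, and the other 3 are controls labelled WT, whose columns carry the prefix SCR. None received a treatment, and the replicates are numbered 4, 5 and 6 in both groups. How the knockdown was made, whether it was 1 clone or a pool, and whether the replicates were separate cultures were not given in the sources used here. Accordingly, the p-values reflect sample-to-sample spread alone, and that spread may be technical.

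Levels are in RPM (reads scaled to sequencing depth). They are not divided by gene length, so they are compared between samples and not between genes. Depth was about 20350000 to 28580000 reads per sample, read from the values on the assumption that the smallest step between them is 1 read. As a check of the labels, ALDH1B1 (chromosome 9, 38392661 to 38398659) had 34.1, 39.6 and 36.7 RPM in the controls and 19.99, 20.4 and 23.2 RPM in the knockdown samples (log2 fold change -0.80, limma adjusted p = 2.41e-07). Of 10 epithelial and colon markers 8 were listed, with a summed level of 5423 to 5675 RPM in the controls and 5778 to 6087 RPM in the knockdown, most of it keratins that were not called. Others of that list moved apart, with log2 fold changes of 0.90 for EPCAM, 1.90 for VIL1 and -0.76 for CDX2. KRT20 and LGALS4 were near 0, with means of 0.107 and 0.182 RPM in the controls and 0.0941 and 0.119 RPM in the knockdown. Listed markers of leukocytes and endothelium summed to under 2 RPM in every sample, and those of fibroblasts to 4.08 to 5.7 RPM in the controls and 5.27 to 6.92 RPM in the knockdown. Of 8 plasma cell markers, a cell type rich in this machinery, 5 were listed with sums of 66 to 79.9 RPM in the controls and 84.9 to 91.2 RPM in the knockdown. SDC1 and PRDM1, which other cells express too, carried these sums, and the defining markers MZB1, POU2AF1 and CD79A were at or near 0. Control replicate 6 had the lowest control value for 32 of the 40 genes, with a median deviation of -0.10 on the log2 scale from the control mean, against -0.10 over all genes tested. The 13 mitochondrial mRNAs took more of the knockdown libraries (63396 to 64315 RPM) than of the control libraries (35973 to 43126 RPM). Scaling without them gave 10 of the 40 genes higher and 11 lower, against 9 and 12 with the deposited scaling. Among the genes called, EIF2AK3, SEC61A1, SSR1, CRELD2, PDIA5, PDIA6 and ERO1LB overlap another listed gene whose mean level is above the filter of 0.694 RPM. Reads may be shared between them. The same holds for SEC63, SSR4, SPCS1, PDIA3, SYVN1, DERL1, DERL2, DERL3 and EDEM2, which were not called. For ATF6, SSR2 and EDEM3 the largest overlapping entry was Y_RNA (0.865 RPM). It is 1 symbol whose listed span reaches all of these genes on chromosome 1, so a true overlap with each was not shown. The largest overlapping gene had 149 RPM for SYVN1 and 53.9 RPM for DERL3. In bulk RNA a smaller share of cells with a transcript and less of it per cell cannot be told apart.

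Secreted and membrane proteins enter the ER through the SEC61 channel, helped by the translocon-associated protein complex, and lose their signal peptide to signal peptidase while sugars are attached by oligosaccharyltransferase. Inside, lectin chaperones and disulfide isomerases fold them, and proteins that fail are trimmed by EDEM proteins and sent back to the cytosol by the SEL1L and SYVN1 ligase complex. When unfolded proteins build up, the sensors IRE1 (ERN1), PERK (EIF2AK3) and ATF6 start the unfolded protein response, in which XBP1 and the cleaved form of ATF6 switch on many of these same genes.

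The 40 genes went in both directions in the knockdown, and rises and falls were spread unevenly over roles and chromosomes. All 40 passed the filter on low values. Of these, 9 rose and 12 fell at an adjusted p under 0.05 (limma, Benjamini-Hochberg over all 15475 genes tested, 3 samples against 3, two-sided). Over all genes tested, 22.7% rose and 19.2% fell, so the 22.5% of ER genes that rose was level with the background, and the 30% that fell lay above it. The count that fell depended on single libraries. It was 7 without control replicate 4, 6 without control replicate 5, 6 without knockdown replicate 5 and 14 without control replicate 6, where 14.9%, 13.7%, 13.1% and 24.1% of all genes fell. The median log2 fold change was -0.05 for the 40 genes and 0.00 for all genes, and the median absolute log2 fold change was 0.201 and 0.245. The 2 groups did not overlap for 22 of the 40 genes, against 51.1% of all genes tested. Summed over the 40 genes, the controls had 4017, 4052 and 3703 RPM and the knockdown samples 3544, 3593 and 3702 RPM. On that sum every knockdown sample lay below every control, but control replicate 6 and knockdown replicate 6 were nearly level. CANX, with the highest RPM of the 40 genes, weighed most in this sum. Its mean was 858 RPM in the controls and 681 RPM in the knockdown.

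**Figure D1:**
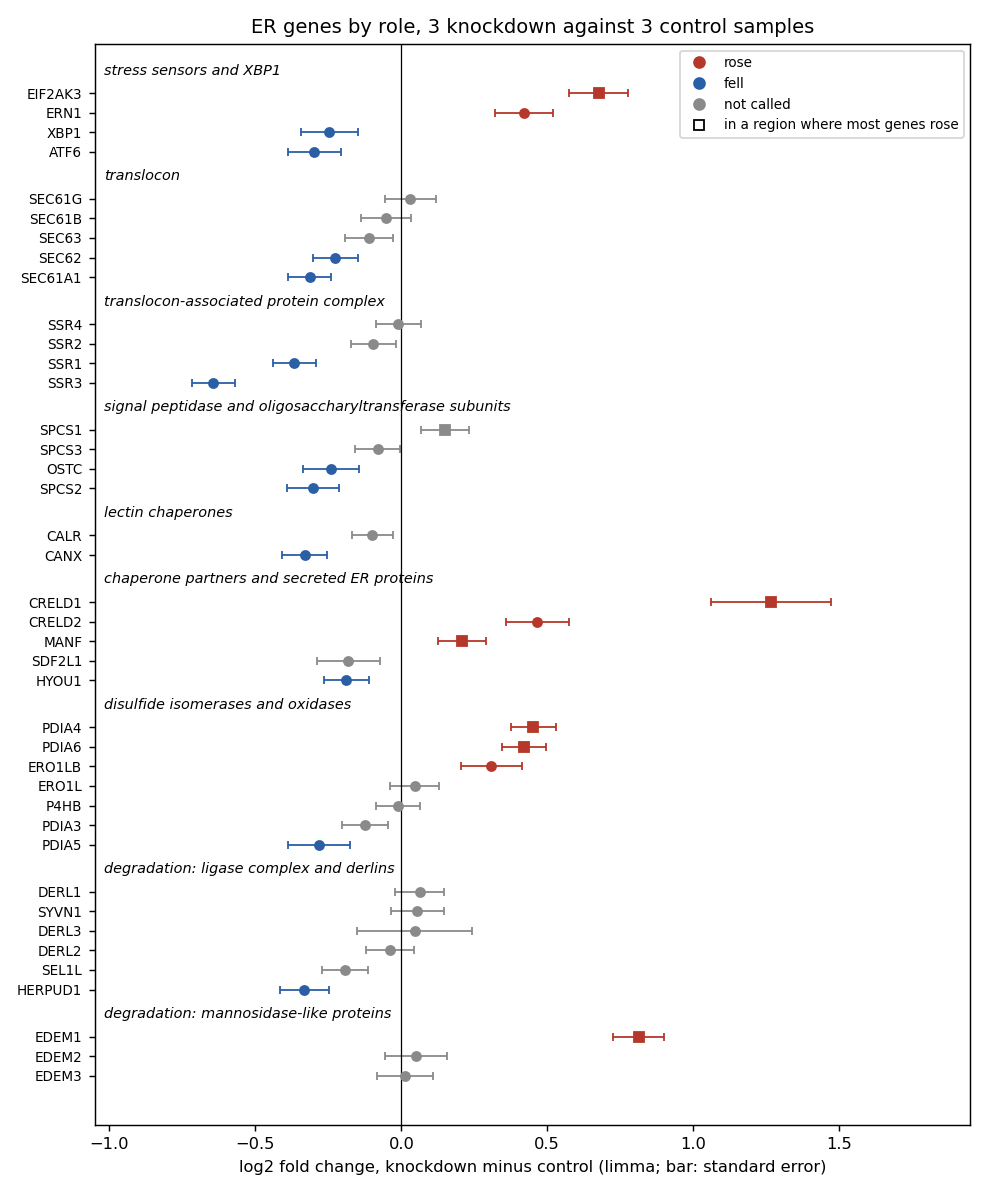
Log2 fold change of each of the 40 ER genes (x axis, knockdown minus control, bars are limma standard errors), grouped by role on the y axis. Translocation genes sit at or left of 0 except SEC61G and SPCS1. The 9 genes that rose are the sensor genes ERN1 and EIF2AK3, 3 chaperone partners or secreted ER proteins, 3 isomerases or oxidases, and EDEM1. Squares mark genes in the 3 chromosome regions described in the text, which hold 6 of the 9.

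Several of these genes carry the ER stress element, the promoter sequence through which ATF6 and XBP1 act, so the promoters that hold it are shown here beside the direction of their genes. Promoter windows from RefSeq (GRCh38.p14, 250 bases before to 50 after the gene start) were found for 36 of the 40 genes. ERO1L and ERO1LB were matched by their newer symbols, and SPCS1, PDIA3, DERL1 and DERL3 had no entry. Both strands were searched for ERSE (CCAAT and CCACG with 9 bases of any kind between them) and ERSE-II (ATTGG and CCACG with 1 base of any kind between them). ERSE was present in 5 of 36 windows, against 22 of all 27305 windows (0.0806%), and ERSE-II in 3, against 15 of all windows (0.0549%). Among the 15842 windows of protein-coding genes, 19 held ERSE (0.12%) and 12 held ERSE-II (0.0757%). A stretch around each match is printed 5′ to 3′ on the strand of the gene, with the matching bases in capitals. A match that reads in the opposite orientation appears as its reverse complement.
XBP1 (chr22:28800570-28800661, minus strand): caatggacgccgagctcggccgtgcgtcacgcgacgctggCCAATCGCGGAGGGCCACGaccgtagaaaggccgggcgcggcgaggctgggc
CANX (chr5:179698738-179698836, plus strand): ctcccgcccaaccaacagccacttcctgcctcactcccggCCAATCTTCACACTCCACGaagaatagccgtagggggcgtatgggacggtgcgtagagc
CALR (chr19:12938359-12938442, plus strand): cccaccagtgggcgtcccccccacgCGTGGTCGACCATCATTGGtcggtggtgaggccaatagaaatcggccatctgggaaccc
CRELD2 (chr22:49918514-49918612, plus strand): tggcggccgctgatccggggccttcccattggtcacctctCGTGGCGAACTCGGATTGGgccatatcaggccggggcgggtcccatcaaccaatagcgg
ERO1LB (chr1:236282143-236282208, minus strand): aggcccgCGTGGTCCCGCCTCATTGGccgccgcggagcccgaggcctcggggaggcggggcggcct
HERPUD1 (chr16:56931985-56932075, plus strand): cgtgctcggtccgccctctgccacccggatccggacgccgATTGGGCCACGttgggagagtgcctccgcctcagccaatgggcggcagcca
HYOU1 (chr11:119057234-119057430, minus strand): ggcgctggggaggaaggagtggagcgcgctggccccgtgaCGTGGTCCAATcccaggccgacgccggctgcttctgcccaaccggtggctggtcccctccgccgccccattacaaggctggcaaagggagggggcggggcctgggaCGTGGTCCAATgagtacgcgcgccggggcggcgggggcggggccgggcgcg
SDF2L1 (chr22:21642074-21642164, plus strand): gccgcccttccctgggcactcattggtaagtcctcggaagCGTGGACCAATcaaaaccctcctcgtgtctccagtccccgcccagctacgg

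The 8 genes with either element did not share a direction. CRELD2 and ERO1LB rose, by 0.47 and 0.31 on the log2 scale. XBP1, CANX, HERPUD1 and HYOU1 fell, with log2 fold changes of -0.25, -0.33, -0.33 and -0.19, and CALR and SDF2L1 were not called (-0.10 and -0.18). Their median was -0.18, against -0.03 for the 28 genes with a window and no exact match to either element, of which 7 rose and 8 fell. Elements with a mismatched base or outside the window were not searched for, so some of the 28 may carry one. None of the 8 lay in the chromosome regions described further on, against 6 of the other 28. Another motif, UPRE (TGACGTGG, searched on both strands), was found for HYOU1, where it overlaps an ERSE-II match, and for SEC62, against 0.795% of all windows.

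Among the sensor genes ERN1 and EIF2AK3 rose, while ATF6 fell. XBP1, a factor of the response that the sensors start, fell as well. ERN1 had 26.8, 28 and 23.2 RPM in control replicates 4, 5 and 6 and 31.4, 33 and 40.2 RPM in knockdown replicates 4, 5 and 6. Every knockdown sample was above every control, with knockdown replicate 6 highest (log2 fold change 0.42, SE 0.0999, adjusted p = 0.00148). EIF2AK3 had 15.7, 13.8 and 13.8 RPM in control replicates 4, 5 and 6 and 20.8, 23.8 and 24.7 RPM in knockdown replicates 4, 5 and 6. These groups were apart as well, with a log2 change of 0.68 with SE 0.101 and adjusted p = 8.61e-06, and EIF2AK3 (chromosome 2, 88856259 to 88927095) lies in one of the regions where most genes rose.

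ATF6 had 38.6, 41.4 and 33.3 RPM in control replicates 4, 5 and 6 and 32.1, 29.4 and 30.4 RPM in knockdown replicates 4, 5 and 6. The groups did not overlap, though control replicate 6 came close to the knockdown range (log2 fold change -0.30, SE 0.091, adjusted p = 0.0103). This call depended on single libraries, with an adjusted p of 0.0791 without control replicate 5 and 0.0608 without knockdown replicate 5. XBP1 had 43, 46.9 and 34.8 RPM in control replicates 4, 5 and 6 and 34.5, 32.2 and 37.8 RPM in knockdown replicates 4, 5 and 6. Here the groups overlapped, since control replicate 6 was level with knockdown replicate 4 and below knockdown replicate 6, and the call only just passed (log2 fold change -0.25, SE 0.099, adjusted p = 0.0481). The adjusted p was 0.131 without control replicate 4, 0.27 without control replicate 5, 0.103 without knockdown replicate 4 and 0.219 without knockdown replicate 5. The table gives 1 value per gene, so spliced and unspliced XBP1 mRNA were not told apart.

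Genes of the translocation machinery fell or were not called. Of the 13 listed, 6 fell and 0 rose, against 19.2% and 22.7% of all genes. Their median log2 fold change was -0.11. Without control replicate 4, control replicate 5, knockdown replicate 5 or knockdown replicate 6 the count that fell was 4, where 14.9%, 13.7%, 13.1% and 18.2% of all genes fell, and SPCS1 passed as higher under quantile normalization and under scaling without mitochondrial mRNAs. SEC61A1 had 259, 274 and 249 RPM in control replicates 4, 5 and 6 and 206, 203 and 219.96 RPM in knockdown replicates 4, 5 and 6. SEC61A1 encodes the pore-forming subunit of the channel, and all 3 knockdown samples lay below the controls (log2 fold change -0.31, SE 0.0733, adjusted p = 0.00125). Its span overlaps RUVBL1 on the other strand, and how strand was treated in counting is not stated in the labels. The small channel subunits SEC61B and SEC61G were not called (-0.05 and 0.03). SEC62, which acts with SEC63 on proteins that enter after their synthesis, went from 112 ± 7.62 to 95.8 ± 5.75 RPM (SD, n = 3), a log2 change of -0.23 with SE 0.078 and adjusted p = 0.022 by limma. Its adjusted p was 0.0897 without control replicate 4, 0.1 without control replicate 5, 0.117 without knockdown replicate 5 and 0.0563 without knockdown replicate 6. SEC63 was not called (-0.11, adjusted p = 0.291).

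The translocon-associated protein complex, which helps some signal sequences open the channel, held the largest fall among the 40 genes. SSR3 had 200.5, 202 and 217 RPM in control replicates 4, 5 and 6 and 127, 132 and 138 RPM in knockdown replicates 4, 5 and 6. Control replicate 6 was the highest control for SSR3, although it was the lowest for most of the other genes, and every knockdown sample was far below (log2 fold change -0.64, SE 0.0732, adjusted p = 1.73e-07). SSR1 had 93.2, 92.1 and 88.3 RPM in control replicates 4, 5 and 6 and 72.3, 70.002 and 69.9 RPM in knockdown replicates 4, 5 and 6. SSR1 fell by less (log2 fold change -0.37, SE 0.0741, adjusted p = 0.000312). SSR2 and SSR4 were not called, with log2 fold changes of -0.10 and -0.01. The log2 ratio of SSR3 to the mean of the other subunits was 1.31, 1.39 and 1.52 in control replicates 4, 5 and 6 and 0.86, 0.91 and 0.99 in knockdown replicates 4, 5 and 6. The difference was -0.49, and the exact two-sided permutation test over the 6 samples gave p = 0.1, which is the lowest p this design can reach. This ratio was chosen with the fall of SSR3 already known, so it describes these samples only.

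**Figure D2:**
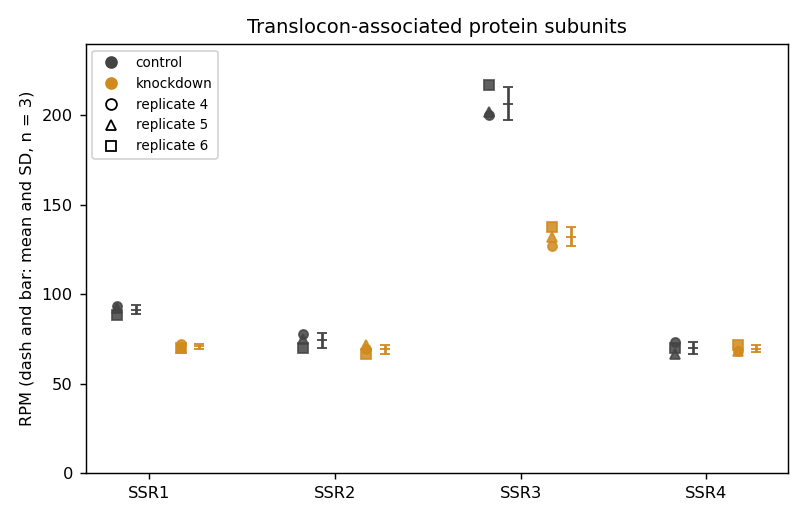
RPM of the 4 subunits of the translocon-associated protein complex (y axis) in each sample, with the mean and SD of 3 samples per group beside the points. SSR3 drops from 207 to 132 RPM and SSR1 from 91.2 to 70.7 RPM, while the points of SSR2 and of SSR4 overlap between groups.

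Signal peptidase was mixed. SPCS2, a subunit beside the catalytic one, fell from 27.3 ± 1.27 to 22.1 ± 0.721 RPM (SD, n = 3), a log2 change of -0.30 with SE 0.0893 and adjusted p = 0.00814 by limma. SPCS3 had 101, 96 and 87.9 RPM in control replicates 4, 5 and 6 and 88.2, 87.3 and 93.2 RPM in knockdown replicates 4, 5 and 6. Those ranges overlapped and SPCS3 was not called (-0.08, adjusted p = 0.414). SPCS1 was the highest of the translocation genes, at 0.15 (adjusted p = 0.153). OSTC, a subunit of the oligosaccharyltransferase that works at the channel, fell by a narrow margin (log2 fold change -0.24, SE 0.0959, adjusted p = 0.0459), and its adjusted p was 0.15 without control replicate 4, 0.0822 without control replicate 5, 0.227 without knockdown replicate 5 and 0.0786 without knockdown replicate 6.

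Folding genes moved both ways, with 6 of 14 that rose and 3 that fell, against 22.7% and 19.2% of all genes. The 21.4% of folding genes that fell is near that background. Of the 6 that rose, CRELD1, MANF, PDIA4 and PDIA6 lie in the chromosome regions described further on. In those regions 66.4% of all genes tested rose. The count that rose was 4 without knockdown replicate 4 or 5 and 5 without any of the others, and the count that fell was 1 without control replicate 4 or 5 or knockdown replicate 4 or 5, 4 without control replicate 6 and 2 without knockdown replicate 6. In those fits, leaving out control replicates 4, 5 and 6 and then knockdown replicates 4, 5 and 6, the shares of all genes that rose were 22.3%, 22.1%, 19.7%, 20.5%, 18.8% and 19%, and those that fell 14.9%, 13.7%, 24.1%, 16.1%, 13.1% and 18.2%. Of the lectin chaperones, which hold sugar-bearing proteins until they fold, the membrane-bound CANX fell and the soluble CALR was not called. CANX had 895, 879 and 800.3 RPM in control replicates 4, 5 and 6 and 679, 684 and 679 RPM in knockdown replicates 4, 5 and 6. The 3 knockdown samples lay within a few RPM of each other and below all controls (log2 fold change -0.33, SE 0.0766, adjusted p = 0.00113). CALR had 368 ± 7.64 RPM in the control and 344 ± 8.21 RPM in the knockdown (SD, n = 3 each). Its groups did not overlap, yet it missed the threshold (-0.10, limma adjusted p = 0.278).

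CRELD1 and CRELD2, related cysteine-rich proteins of which CRELD2 is a known ER stress target, rose. CRELD1 had 2.38, 2.42 and 1.4 RPM in control replicates 4, 5 and 6 and 4.13, 5.06 and 5.39 RPM in knockdown replicates 4, 5 and 6. This was the largest change among the 40 genes (log2 fold change 1.27, SE 0.205, adjusted p = 2.44e-05), from control values under 3 RPM, and the gene lies in one of the regions where most genes rose. CRELD2 had 14.3, 15.7 and 11.8 RPM in control replicates 4, 5 and 6 and 18.2, 19.7 and 19.4 RPM in knockdown replicates 4, 5 and 6. All knockdown samples lay above all controls (log2 fold change 0.47, SE 0.109, adjusted p = 0.00125), outside those regions.

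MANF, a small protein secreted under ER stress, rose slightly (log2 fold change 0.21, SE 0.0823, adjusted p = 0.0437). The adjusted p for MANF was 0.134 without control replicate 4, 0.097 without control replicate 5, 0.134 without knockdown replicate 4, 0.0587 without knockdown replicate 5 and 0.119 without knockdown replicate 6. HYOU1 had 186, 206 and 183 RPM in control replicates 4, 5 and 6 and 159, 169 and 177 RPM in knockdown replicates 4, 5 and 6. HYOU1, a large chaperone that exchanges nucleotide on BiP, fell by a small amount (log2 fold change -0.19, SE 0.0755, adjusted p = 0.048), with an adjusted p of 0.0751 without control replicate 4, 0.23 without control replicate 5, 0.193 without knockdown replicate 4 and 0.109 without knockdown replicate 5. SDF2L1, which works with an ER J-protein, was not called (-0.18, adjusted p = 0.183), although its groups did not overlap.

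Among the disulfide isomerases, PDIA4 and PDIA6 rose and PDIA5 fell. PDIA4 had 122, 115 and 104 RPM in control replicates 4, 5 and 6 and 152, 154 and 159.8 RPM in knockdown replicates 4, 5 and 6. PDIA6 had 161, 158 and 143 RPM in control replicates 4, 5 and 6 and 204, 202 and 211 RPM in knockdown replicates 4, 5 and 6. In both the lowest knockdown sample was well above the highest control, with log2 fold changes of 0.45 (SE 0.0764, adjusted p = 4.15e-05) and 0.42 (SE 0.0739, adjusted p = 6.68e-05), and both genes lie in regions where most genes rose.

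PDIA5 fell from 13.9 ± 0.891 to 11.4 ± 0.458 RPM (SD, n = 3), a log2 change of -0.28 with SE 0.106 and adjusted p = 0.0355 by limma. Its adjusted p was 0.118 without control replicate 4, 0.114 without control replicate 5, 0.109 without knockdown replicate 4, 0.062 without knockdown replicate 5 and 0.075 without knockdown replicate 6. P4HB had 372, 387 and 338 RPM in control replicates 4, 5 and 6 and 355, 357 and 375 RPM in knockdown replicates 4, 5 and 6. P4HB, the classical protein disulfide isomerase, had overlapping groups and was not called (-0.01, adjusted p = 0.915). PDIA3, the isomerase partner of the lectin chaperones, was not called with all samples (-0.12, adjusted p = 0.208), but without control replicate 6 its adjusted p was 0.0339. The oxidase ERO1LB, which reoxidises the isomerases, rose (log2 fold change 0.31, SE 0.104, adjusted p = 0.0197), with an adjusted p of 0.0819 without control replicate 6, 0.0598 without knockdown replicate 4 and 0.0627 without knockdown replicate 5. Its paralog ERO1L was not called (0.05, adjusted p = 0.684).

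**Figure D3:**
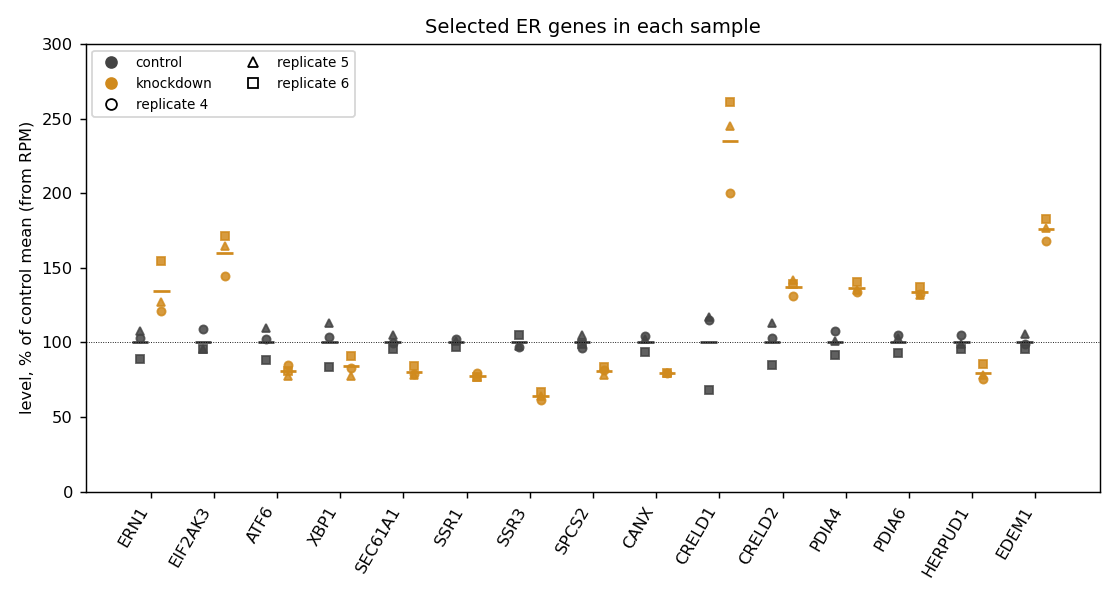
Level of 15 of the ER genes in each sample as a percentage of the control mean of that gene (y axis), with dashes for group means. CRELD1 reaches 235% and EDEM1 176% of control on average, SSR3 falls to 64%, and only XBP1 has overlapping groups.

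Few degradation genes were called. Of 9 genes, 1 rose, 1 fell and 7 were not called, against 22.7% that rose and 19.2% that fell over all genes. The median of their absolute log2 fold changes was 0.0552. HERPUD1 had 47, 44.2 and 42.7 RPM in control replicates 4, 5 and 6 and 33.5, 34.9 and 38.1 RPM in knockdown replicates 4, 5 and 6. HERPUD1, which organises the ligase complex and is itself induced by ER stress, was lower in every knockdown sample (log2 fold change -0.33, SE 0.0842, adjusted p = 0.00261). SEL1L had 85.4, 83.4 and 74.1 RPM in control replicates 4, 5 and 6 and 68.9, 74.5 and 68.7 RPM in knockdown replicates 4, 5 and 6. SEL1L, the adaptor of the ligase SYVN1, overlapped through control replicate 6 and missed the threshold (-0.19, adjusted p = 0.0521), which it passed without that library (adjusted p = 0.00466). SYVN1 and the derlins DERL1, DERL2 and DERL3, which form or line the exit channel, had log2 fold changes of 0.06, 0.06, -0.04 and 0.05, none called.

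EDEM1 had 22, 23.4 and 21.1 RPM in control replicates 4, 5 and 6 and 37.2, 39.1 and 40.5 RPM in knockdown replicates 4, 5 and 6. EDEM1 speeds the removal of misfolded glycoproteins, and its knockdown values were all well above the controls (log2 fold change 0.81, SE 0.0871, adjusted p = 6.63e-08). EDEM2 and EDEM3, which act in mannose trimming, were not called (0.05 and 0.01). EDEM2 overlaps 5 other listed genes.

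Most of the rises coincided with chromosome position. Genes on chromosome 2 below 130 Mb, chromosome 3 below 70 Mb and chromosome 7 beyond 120 Mb were higher as a block in the knockdown. These bounds were set with earlier results of these data known. Leaving the 40 genes out, 71.3%, 60.6% and 62.4% of the genes tested there rose, with median log2 fold changes of 0.47, 0.38 and 0.41. The regions hold 7 of the 40 ER genes. Of these 6 rose (PDIA6, EIF2AK3, EDEM1, CRELD1, MANF and PDIA4), and SPCS1 was not called. Outside the regions 3 of 33 rose (ERN1, CRELD2 and ERO1LB) and 12 fell. Over all genes tested outside them, 19.1% rose and 20.5% fell, and within them 66.4% rose and 2.89% fell. Read against this, 9.09% of the ER genes outside the regions rose and 36.4% fell. All of the genes that fell lay outside them, so the dependence of that count on single libraries given above applies here unchanged, from 6 without control replicate 5 or knockdown replicate 5 to 14 without control replicate 6.

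Chromosome 3 shows the pattern in 1 chromosome. EDEM1 (5229331 to 5261643 in the table's coordinates), CRELD1 (9975506 to 9987098), MANF (51422478 to 51426829) and SPCS1 (52738971 to 52742183) lie below 70 Mb and had log2 fold changes of 0.81, 1.27, 0.21 and 0.15. PDIA5 (122785909 to 122944075), SEC61A1 (127770484 to 127790527), SSR3 (156257929 to 156272974) and SEC62 (169684423 to 169716162) lie beyond it, and all of them fell, by 0.28, 0.31, 0.64 and 0.23 on the log2 scale. Of the other 479 genes tested beyond 70 Mb, 30.9% fell and 15.4% rose, with a median of -0.12.

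Each gene was set beside the other tested genes within 5 Mb of it, with the 40 ER genes left out. PDIA4 and PDIA6, at 0.45 and 0.42, were level with neighbour medians of 0.51 and 0.41. EDEM1, at 0.81, stood beside a median of 0.71, and 12 of its 35 neighbours were higher still. MANF and SPCS1, at 0.21 and 0.15, were below neighbour medians of 0.35 and 0.35. CRELD1, at 1.27, exceeded a median of 0.70, with 8 of 58 neighbours higher, and EIF2AK3, at 0.68, exceeded 0.47, with 16 of 46 higher.

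Outside the regions the distance from the neighbours varied. SSR3, at -0.64, had a neighbour median of -0.15, and 3 of 42 neighbours were lower than it. SPCS2, at -0.30, and HERPUD1, at -0.33, had medians of 0.00 and -0.06, with 5 of 85 and 5 of 51 neighbours lower. CRELD2, at 0.47, had a median of 0.09 around it and 10 of 53 neighbours higher. ERO1LB, at 0.31, had 0.02 and 6 of 35 higher, and ERN1, at 0.42, had 0.14 and 22 of 82 higher. For the 12 genes that fell the neighbour medians ran from -0.18 to 0.06. Over the 40 genes the correlation between a gene's log2 fold change and its neighbour median was r = 0.83, a description over genes that share the same 6 libraries and, in part, the same neighbours. The 7 genes in the 3 regions had neighbour medians of 0.35 to 0.71, against 0.22 at most for the others. The correlation was not computed without those 7 genes. Copy number was not measured, and its part in these values was not tested.

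**Figure D4:**
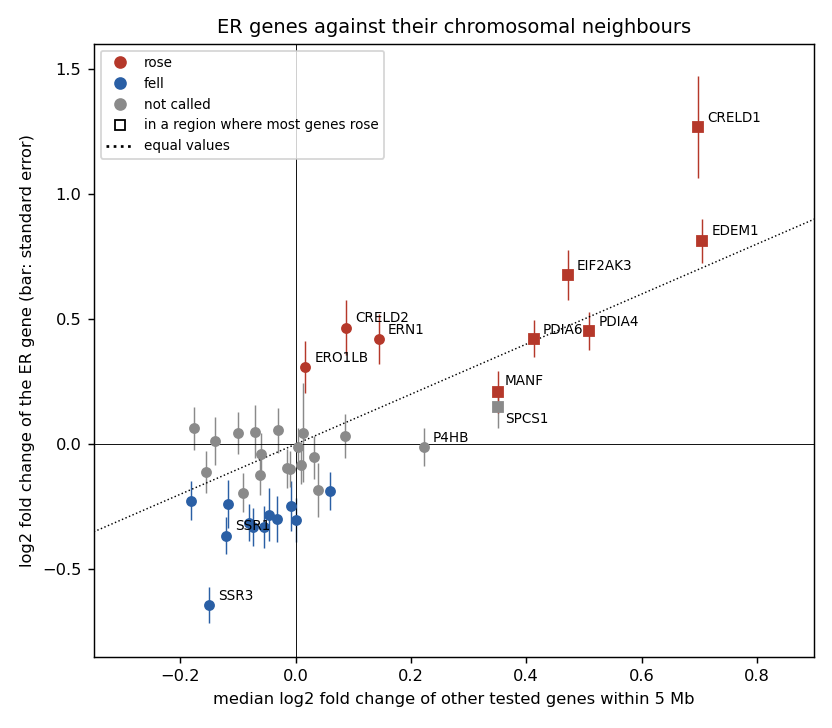
Log2 fold change of each of the 40 ER genes (y axis, bars are standard errors) against the median log2 fold change of the other tested genes within 5 Mb (x axis), with a dotted line of equal values. The 7 genes in the 3 regions (squares) lie to the right, near or above the line except MANF and SPCS1, while SSR3 lies at -0.64 over a neighbour median of -0.15.

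The wider pathway was read from 112 further genes in 8 lists, of which 110 were tested. Of these 19 rose and 35 fell (median -0.10 on the log2 scale), against 22.7% and 19.2% of all genes. The counts for these lists were not recomputed with each library left out. The signal recognition particle and its receptor, which bring ribosomes to the channel, were lower or not called, in that 5 of 8 fell and 0 rose. Depending on the gene, these 5 calls held under 8 to 16 of the 16 alternatives of processing. SRPRB, the membrane anchor of the receptor, fell from 49.7 ± 2.42 to 32.6 ± 1.14 RPM (SD, n = 3), a log2 change of -0.61 with SE 0.0822 and adjusted p = 2.1e-06 by limma, and SRP72 and SRP14 by 0.47 and 0.30. Among other translocon and membrane insertion factors 11 of 20 fell and 4 rose. The calls of the 11 that fell held under 9 to 16 of the alternatives. TRAM2 and EMC6 were the clearest of those that fell (-0.42 and -0.41). SEC61A2, the second gene for the pore subunit, rose (log2 fold change 0.49, SE 0.126, adjusted p = 0.0028) while SEC61A1 fell. EMC3, of the same complex as EMC6, rose by 0.53 and lies beside CRELD1 on chromosome 3.

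Of other signal peptidase and oligosaccharyltransferase subunits 3 of 12 fell and 1 rose. STT3A, a catalytic subunit, changed by -0.31, DAD1 by -0.34 and RPN1 by -0.25 (adjusted p = 0.0537 for RPN1 without knockdown replicate 5). OST4, on chromosome 2 below 130 Mb, rose by 0.45. STT3B, the other catalytic subunit, was not called (-0.07, limma adjusted p = 0.476). Other ER oxidoreductases fell or were not called, with 6 of 12 that fell, led by TXNDC12 (45.7 ± 3.35 RPM in the control and 25.2 ± 1.55 RPM in the knockdown, SD, n = 3 each, limma log2 change of -0.85 with SE 0.0882 and adjusted p = 3.54e-08). Of other ER chaperones 3 of 15 rose and 2 fell. DNAJB9, a BiP co-chaperone induced by XBP1, rose by 0.58, and DNAJC3, which restrains PERK, by 0.41 beside a neighbour median of 0.39, whereas the collagen chaperone SERPINH1 fell by 0.50. The central chaperones HSPA5 (BiP) and HSP90B1 were not called (-0.14, adjusted p = 0.138, and 0.06, adjusted p = 0.572).

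Of other stress signalling genes, a list that holds targets of the sensors as well as relatives of ATF6 and the proteases that cleave them, 4 of 13 tested rose and 2 fell (30.8% and 15.4%, against 22.7% and 19.2% of all genes). DDIT3, which encodes the stress factor CHOP, rose from 14.3 ± 0.315 to 22 ± 0.927 RPM (SD, n = 3), a log2 change of 0.62 with SE 0.0954 and adjusted p = 1.35e-05 by limma. PPP1R15A, whose product reverses the translational block set by PERK, rose by 0.47. TRIB3, a target of ATF4 and CHOP, fell (log2 fold change -0.80, SE 0.1, adjusted p = 7.64e-07), and ATF4 itself was not called (-0.11, adjusted p = 0.216). CREB3, an ER-bound factor cleaved like ATF6, fell by 0.46, and its relative CREB3L2, on chromosome 7 beyond 120 Mb, rose by 0.48 beside a neighbour median of 0.42.

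**Figure D5:**
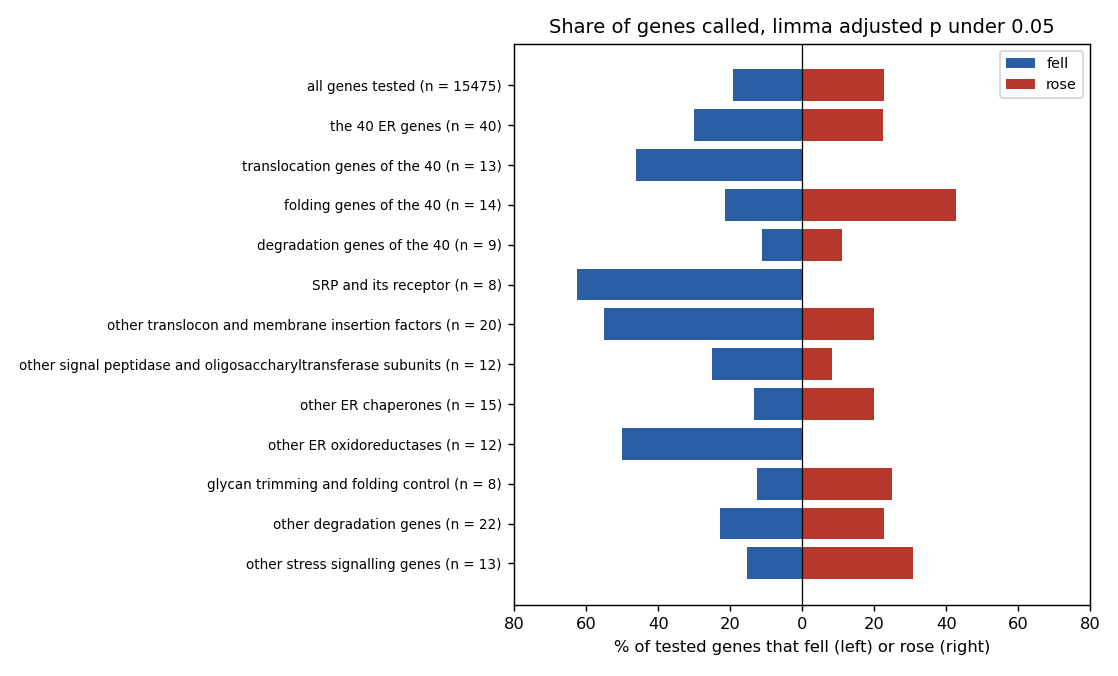
Percentage of tested genes that fell (bars to the left) or rose (bars to the right) at a limma adjusted p under 0.05, for all genes, for the 40 ER genes and their 3 divisions, and for 8 lists of other pathway genes. The translocation genes, the signal recognition particle and the other ER oxidoreductases show no bar to the right, against 22.7% for all genes.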

How the data were processed

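The deposited table gives 1 value per gene and sample. Its deposited values are log2(RPM + 0.0001). The authors' labels do not state this scale, and it was inferred from the values. Per the submitters' processing notes Partek, Bowtie and hg38 were used. The positions are of another build, since the largest end on chromosome 1, 249214146, exceeds the last gene end of GRCh38 in GENCODE 29, 248937043. Positions are printed as the table has them. Counting method, gene models and strand setting: not given in the sources used here. What 1 read is worth was taken from the step between low values. The most frequent low value was 2 of these steps in every sample. If 1 read counts as 2 steps, the depths given are too high. Only 75.4% to 76.1% of values up to 20 reads lay within 0.02 of a whole read, so no count model was used. A symbol at several loci had identical values and was used once.

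Genes whose mean level reached 0.694 RPM entered limma 3.58.1 in R 4.3.3 (lmFit, eBayes with trend), knockdown against control, 3 samples each, no covariates, two-sided, Benjamini-Hochberg over all genes tested, threshold 0.05. "Rose" and "fell" are used only past it, and every adjusted p is from limma. The script was tested on simulated data. Figures used matplotlib 3.10.9. Alternatives covered scaling, offset, filter, variance prior, each library left out, the replicate block and members outside the 3 regions.

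The 40 genes, the other lists, the regions and the rule for naming genes were chosen with earlier results of these data known. All 40 may be named. Per-sample values are given for called genes with an absolute log2 fold change of at least 0.4, the sensor genes, XBP1 and the gene with the highest RPM in each role. SSR1 and HERPUD1 were added to these after their values were seen. From other lists up to 3 called genes per direction are named by adjusted p. HSPA5, HSP90B1, ATF4 and STT3B were named after their values were seen.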

Additional observations from a re-analysis of the deposited data

How the results depend on the processing

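The count of ER genes that rose was 7 to 10 under the 16 alternatives of scaling, offset, filter, variance prior, library and block, and 3 without the genes in the 3 regions. The count that fell was less stable: 7 with a variance prior without trend, and 6 to 14 when 1 library was left out, with 7 without control replicate 4, 6 without control replicate 5, 14 without control replicate 6 and 6 without knockdown replicate 5. Of the 21 genes called, 12 were called in the same direction under every alternative (ERN1, EIF2AK3, CRELD2, PDIA4, PDIA6, EDEM1, SEC61A1, SSR1, SSR3, SPCS2, CANX and HERPUD1), and CRELD1 under all but the filter 5 times higher, which it did not enter. None of the 21 called ER genes changed direction. P4HB, DERL3, SSR4, SEC61B, SEC61G, ERO1L, SYVN1, DERL2, EDEM2 and EDEM3, none of them called, changed sign in at least 1 alternative. A call was lost in 67 combinations of named gene and alternative and gained in 8. The median of the 40 genes was -0.05, and 0.01 when scaled to listed genes outside the mitochondrial genome. With the filter 5 times higher 23.4% of all genes fell, and 13 of 39 ER genes. Deviations from the group mean in same-numbered samples correlated at -0.05, -0.06 and -0.12, so no pairing by number was seen. With the replicate block 8 ER genes rose and 7 fell, and of all genes 20.5% rose and 14.9% fell. The log2 ratio of SSR3 to the mean of the other SSR subunits differed by -0.53 to -0.43 with 1 library left out.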

Other observations

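Further steps of the pathway, glycan trimming and the extraction of failed proteins, had shares of called genes near those of all genes (22.7% rose and 19.2% fell). Of 8 genes of glycan trimming and folding control 2 rose and 1 fell (25% and 12.5%). UGGT2 rose from 13.9 ± 2.17 to 23.6 ± 0.578 RPM (SD, n = 3), a log2 change of 0.77 with SE 0.109 and adjusted p = 3.97e-06 by limma, beside a neighbour median of 0.37. Its paralog UGGT1, the folding sensor that returns proteins to the lectin chaperones, fell (log2 fold change -0.24, SE 0.075, adjusted p = 0.0114), and its adjusted p was 0.0837 without control replicate 4 and 0.0634 without knockdown replicate 4. UGGT1 lies on chromosome 2 below 130 Mb, near the end of that region, and its neighbours had a median of 0.02, with 4 of 43 that rose and 12 that fell. MOGS, the first glucosidase, rose by 0.55 beside a neighbour median of 0.44.

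Among 22 other degradation genes 5 rose and 5 fell (22.7% each). HERPUD2 rose by 0.78 (adjusted p = 1.82e-05, neighbour median 0.15) while its relative HERPUD1 fell. The ubiquitin-conjugating enzyme UBE2G2 rose by 0.68, beside a neighbour median of 0.37, whereas UBE2J1 and UBE2J2, which serve the same route, changed by -0.33 and -0.30. NGLY1, which strips sugars from extracted proteins, rose by 0.69, and it lies on chromosome 3 below 70 Mb, beside a neighbour median of 0.20.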
